A study of Homo sapiens with 6 samples.

Results

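The subject is the Mediator complex, followed through 33 genes that encode its subunits in human cells. Members were taken by gene symbol from the deposited array table, and each gene was read by its brightest probe set, taken over the mean of 6 arrays. Of the 33 genes 31 had a probe set annotated to that gene alone, out of 19775 genes tested. MED6, of the head, and MED25, of the tail, had none in the annotation used here and are not analysed. The arrays came from MV4;11, an acute myeloid leukaemia line carrying an MLL-AF4 fusion, exposed for 3 h either to 25 nM cortistatin A (labelled CA, 3 arrays) or to the solvent DMSO (3 arrays). All arrays share this cell line, medium and time. Each condition had triplicate wells according to the labels, which leave unsaid whether the cultures were separate, so p-values cover no more than the scatter of these samples, possibly technical.

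Mediator is a large assembly that bridges transcription factors bound at enhancers and RNA polymerase II at promoters. Its core is described as a head and a middle, which contact the polymerase, a tail, which receives many activators, and the long subunit MED14, which joins these parts. A separable kinase module holds CDK8 or its paralogue CDK19, their cyclin CCNC, MED12 or MED12L, and MED13 or MED13L. This module binds the core reversibly, and while bound it hinders the polymerase from docking. The kinases CDK8 and CDK19 are inhibited by cortistatin A, a steroidal alkaloid from a marine sponge. The comparison asks whether the messages of the inhibited complex itself differed after a short exposure to the drug.

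Levels and changes are given on the log2 scale of the deposited values. Levels of different genes are not set against each other, because probe sets bind with different strength. A probe set is called dim where its mean does not exceed 3.74, the array-wide median. Array medians were 3.74 to 3.77 in cortistatin A and 3.74 to 3.75 in DMSO. Of 11 myeloid markers 9 were measured and 7 lay above the median, among them LYZ (12.42 in cortistatin A and 12.40 in DMSO), the receptor FLT3 (9.46 and 9.65) and MEIS1 (8.79 and 8.62). The rest of these were CSF1R (5.67 and 5.56), ITGAM (5.31 and 5.12), MPO (5.21 and 5.24) and SPI1 (4.36 and 4.36). The monocyte marker CD14 (2.63 and 2.74) and FCGR1A (3.32 and 3.02) were dim. Lymphoid markers had means of 2.32 to 5.12 (6 of 7 measured, 4 above the median). Erythroid markers had means of 3.40 to 4.70 (3 of 4, 2 above) and epithelial markers 1.58 to 4.92 (4 of 4, 1 above). Of the 22 markers 0 passed the test. For beta-actin, the 3' less the 5' control signal, a measure of RNA integrity, was 1.88, 1.89 and 2.08 in cortistatin A and 1.77, 1.69 and 1.79 in DMSO. For GAPDH it was 1.13, 1.12 and 1.17 in cortistatin A and 1.08, 1.04 and 1.13 in DMSO, and these groups overlapped.

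No Mediator gene passed the test. By limma with Benjamini-Hochberg adjustment over all genes, 0 of the 31 members had an adjusted p under 0.05, where 0.582% of all genes did, and 0.878% of the genes above the median. The adjusted p of the members ran from 0.249 for CDK19 to 0.988 for MED23. Changes lay between -0.23 for MED18 and 0.20 for MED7, with 11 members on the higher and 20 on the lower side. Over all genes the split was 10365 higher and 9410 lower. The median change of the members was -0.03, beside 0.0065 for all genes. Their median size without sign was 0.078, beside 0.076 for all genes. At an unadjusted limma p under 0.05 stood 4 of 31 members (12.9%), namely CDK19, MED20, MED7 and MED30, where 12.6% of all genes did and 14.9% of those above the median. The members' share was thus close to the background.

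The groups did not overlap for 10 of the 31 members (32.3%), with 5 higher and 5 lower in cortistatin A. Over all genes the share was 19.4%, made of 10.2% higher and 9.22% lower, and it was 25% for genes above the median, a class that holds 30 of the 31 members. The higher ones were MED13L, MED11, MED20, MED7 and MED19, and the lower ones CDK19, MED13, MED21, MED30 and MED14. The actin 3' to 5' signal did not overlap either. With the mean 3' to 5' signal of 22 control pairs in the fit, CDK19 was at -0.21 and MED30 at -0.12. In that fit 0 members passed, but 0 of all 19775 genes did too, so the count does not describe the members. The mean 3' to 5' signal was 0.77, 0.75 and 0.72 in cortistatin A and 0.65, 0.75 and 0.73 in DMSO. Unlike for actin, its groups overlapped. Actin alone was not used as a covariate. For the probe sets used, the 95% limma intervals lay within a 1.2-fold change for 20 members and within 1.5-fold for all 31. These intervals are not adjusted for the number of genes. Among them the interval of MED18 reached furthest from 0, to 1.40-fold. A bright MED17 probe set not used for the gene had a wider interval, -0.96 to 0.09. The smallest change that passed among all genes was 1.26-fold, and no member changed by as much in the probe set used.

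**Figure D1:**
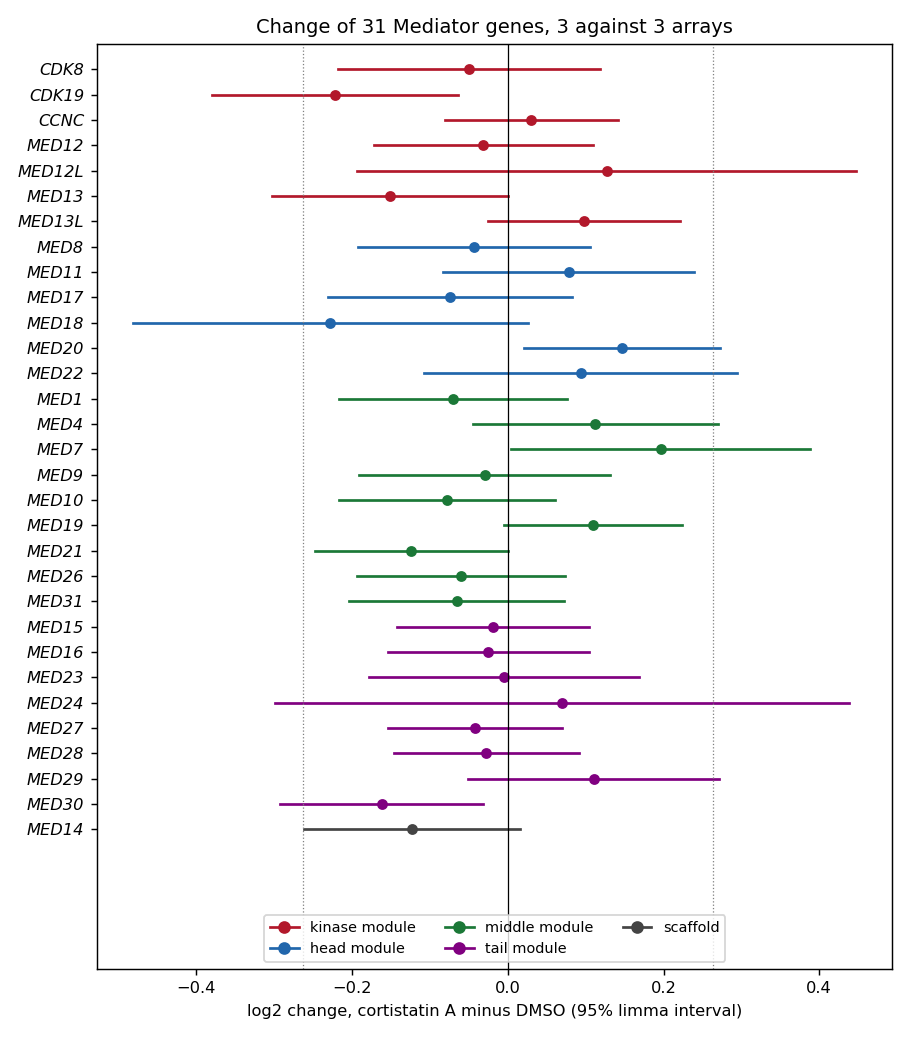
Change of each measured Mediator gene on the log2 scale, cortistatin A minus DMSO (points), with the 95% limma interval (lines), coloured by module, from 3 arrays per group. Dotted lines mark a 1.2-fold change either way, and the points lie between -0.23 and 0.20.

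In the kinase module, 0 of 7 genes passed, 4 were on the lower and 3 on the higher side, and the median change was -0.03. The sign of this median was not stable, at 0.03 without the _x_at and _s_at types, 0.02 with the 3' to 5' covariate, and 0.01 without cortistatin A replicate 2 and 0.02 without DMSO replicate 1. The 0.03 was the value of MED12, read there by a dim probe set with a mean of 3.48, while its 3 bright probe sets were all lower. For 3 of the 7 the groups did not overlap. The core without this module had 0 of 24 past the test, a median of -0.03 and 7 of 24 without overlap, beside 19.4% of all genes and 25% of those above the median. The promoters of both target kinases are shown for orientation, 250 bases before to 50 after a RefSeq start in GRCh38.p14, with matches to the motifs listed further on in capitals. That of CDK8 is chr13:26253879-26254178 on the plus strand, and that of CDK19, the first of 3 starts listed, is chr6:110815806-110816105 on the minus strand.
CDK8: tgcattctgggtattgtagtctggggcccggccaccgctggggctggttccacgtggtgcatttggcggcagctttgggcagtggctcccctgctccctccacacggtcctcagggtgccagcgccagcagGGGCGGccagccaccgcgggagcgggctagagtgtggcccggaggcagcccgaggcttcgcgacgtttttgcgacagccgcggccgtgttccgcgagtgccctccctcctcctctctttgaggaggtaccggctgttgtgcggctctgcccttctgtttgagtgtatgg
CDK19: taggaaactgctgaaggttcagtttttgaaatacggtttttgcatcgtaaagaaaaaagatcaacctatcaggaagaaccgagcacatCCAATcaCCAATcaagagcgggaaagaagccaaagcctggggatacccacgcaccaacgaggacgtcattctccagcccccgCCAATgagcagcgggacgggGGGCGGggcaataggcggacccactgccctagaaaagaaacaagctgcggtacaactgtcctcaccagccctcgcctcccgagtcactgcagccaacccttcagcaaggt

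CDK8, the first described kinase of the module, had levels of 7.57, 7.43 and 7.67 in cortistatin A, against 7.61, 7.63 and 7.58 in DMSO. The DMSO values fell inside the range of the drug arrays. Errors of changes are limma standard errors with 3 arrays a group. The change of CDK8 was -0.05 ± 0.07 (limma adjusted p = 0.824), with an interval of -0.22 to 0.12. CDK19, the paralogue, had levels of 7.71, 7.60 and 7.66 in cortistatin A, against 7.89, 7.78 and 7.96 in DMSO. Every drug array was below every DMSO array, with 0.07 between the nearest. The change was -0.22 ± 0.07, or 1.17-fold (limma adjusted p = 0.249, unadjusted p = 0.0129). With trend and robust variances in limma the same change had an adjusted p of 0.0339, in a fit where 3.85% of all genes were called. Over its 14 alternatives the adjusted p of CDK19 was 0.0339 to 0.498.

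CCNC, cyclin C, had levels of 10.20, 10.14 and 10.15 in cortistatin A, against 10.12, 10.15 and 10.13 in DMSO. The groups overlapped, and the interval of the change, -0.08 to 0.14, was the narrowest in the module. MED12, which links cyclin C to MED13 and activates the kinase, had levels of 6.25, 6.31 and 6.30 in cortistatin A, against 6.41, 6.27 and 6.27 in DMSO. A single DMSO array stood above all the rest, and the change was -0.03 ± 0.06 (limma adjusted p = 0.871). MED12L, its paralogue, was the only dim member, with levels of 3.01, 3.19 and 2.80 in cortistatin A, against 2.96, 3.02 and 2.64 in DMSO. Its interval of -0.19 to 0.45 was the widest in the module.

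MED13, which joins the kinase module to the core, had levels of 9.40, 9.30 and 9.39 in cortistatin A, against 9.45, 9.47 and 9.62 in DMSO. Again the groups stood apart, by a margin of 0.06. The change was -0.15 ± 0.06 (limma adjusted p = 0.396), an interval that just reached 0. MED13L, its paralogue, had levels of 8.26, 8.15 and 8.19 in cortistatin A, against 8.13, 8.10 and 8.08 in DMSO. Here all drug arrays were above all DMSO arrays, by a margin of 0.02. The change of MED13L was 0.10 ± 0.05 (limma adjusted p = 0.506).

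**Figure D2:**
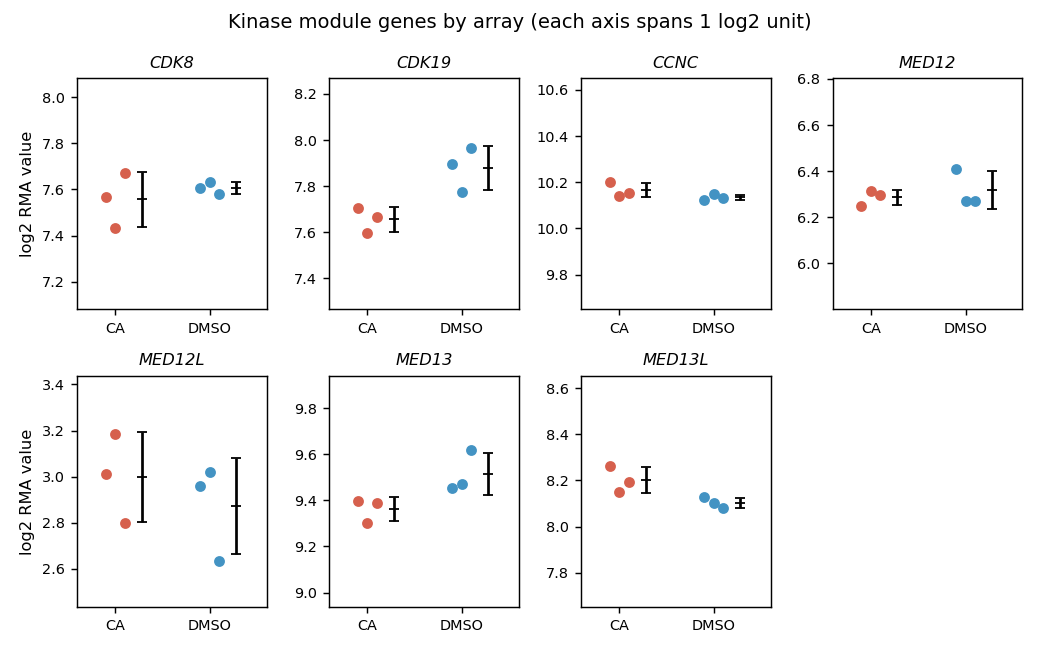
Log2 values of the 7 kinase module genes on each array (points, cortistatin A left and DMSO right of each panel), with mean and SD beside them. CDK19 and MED13 have their 3 drug arrays below the DMSO arrays, and MED13L has them above.

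Because the alternative subunits occupy the same place in the module, the difference between the changes of each of 3 paralogue pairs was tested over arrays with a two-sided exact permutation test, which with 3 against 3 arrays allows no p below 0.1. MED13L minus MED13 was -1.13, -1.15 and -1.19 in cortistatin A, against -1.33, -1.37 and -1.53 in DMSO. All drug arrays lay above all DMSO arrays. Intervals of these differences are 95% t intervals with the SD pooled over the groups, not limma intervals, and are not adjusted. For this pair the difference of the changes was 0.25, with an interval of 0.07 to 0.43 (exact permutation p = 0.1, the smallest possible, adjusted over the pairs p = 0.3). With the mean of all probe sets per gene it was 0.18 (exact permutation p = 0.3). For CDK19 minus CDK8 the difference of the changes was -0.17, with an interval of -0.42 to 0.07 (exact permutation p = 0.2, adjusted p = 0.3). For MED12L minus MED12 it was 0.16, with an interval of -0.27 to 0.59 (exact permutation p = 0.4, adjusted p = 0.4). The adjustment over 3 pairs cannot bring a p below this floor of 0.1, so this test could not pass for any pair.

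In the head module 0 of 6 measured genes passed, with 3 on each side and a median of 0.02. MED20, which in yeast pairs with MED18 in a mobile part of the head, had levels of 8.21, 8.27 and 8.23 in cortistatin A, against 8.03, 8.13 and 8.11 in DMSO. All drug arrays were above all DMSO arrays. The change was 0.15 ± 0.05 (limma adjusted p = 0.324). MED18, its partner, had levels of 5.50, 5.67 and 5.71 in cortistatin A, against 6.04, 5.67 and 5.85 in DMSO. The DMSO arrays were spread over 0.37 and the groups overlapped. At -0.23 ± 0.11 (limma adjusted p = 0.443) MED18 had the lowest value of all members. Its partner MED20 had the opposite sign in the probe set used. The other bright probe set of MED20, with a mean of 3.99, was at -0.09. MED18 was at -0.13 without DMSO replicate 1, at -0.09 with the 3' to 5' covariate and at -0.11 without the _x_at and _s_at types, and in each of these CDK19 was lower. MED11, a small head subunit that in yeast pairs with MED22, had levels of 6.65, 6.65 and 6.85 in cortistatin A, against 6.64, 6.63 and 6.64 in DMSO. Its groups did not overlap, but a single drug array carried the distance. Without that array, cortistatin A replicate 3, the change of MED11 was 0.01, against 0.08 with it. The other head genes overlapped between the groups, namely MED8 (-0.04), the head scaffold MED17 (-0.07) and MED22 (0.09).

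In the middle module 0 of 9 genes passed, 3 were on the higher and 6 on the lower side, and the median was -0.06. MED7, which in yeast forms a hinge of the middle together with MED21, had levels of 7.41, 7.41 and 7.63 in cortistatin A, against 7.30, 7.20 and 7.35 in DMSO. The groups did not overlap, and the change of 0.20 ± 0.08 was the highest of all members (limma adjusted p = 0.385). Without cortistatin A replicate 3 MED7 was at 0.12, below MED20 at 0.15, and averaged over its probe sets it was also at 0.12. MED21 had levels of 8.09, 8.06 and 8.01 in cortistatin A, against 8.14, 8.23 and 8.16 in DMSO. All drug arrays were below all DMSO arrays, with a change of -0.12 ± 0.05 (limma adjusted p = 0.396), so the partners in the hinge stood on opposite sides. MED19, placed here with the middle, had levels of 8.20, 8.22 and 8.27 in cortistatin A, against 8.09, 8.14 and 8.13 in DMSO. The drug arrays were all higher, with a change of 0.11 ± 0.05 (limma adjusted p = 0.413). The other 6 genes overlapped between the groups. MED4, in yeast a partner of MED9, was at 0.11, MED9 at -0.03 and MED10 at -0.08. MED1, through which nuclear receptors bind, was at -0.07, MED26, which recruits elongation factors, at -0.06 and MED31 at -0.07.

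The tail module is taken here with MED27, MED28, MED29 and MED30, which some structural work counts with the head. Of its 8 measured genes 0 passed, 2 were on the higher and 6 on the lower side, and the median was -0.02. MED30, a subunit of animal Mediator, had levels of 9.12, 9.09 and 9.20 in cortistatin A, against 9.34, 9.28 and 9.26 in DMSO. All drug arrays were lower, with a margin of 0.06. The change was -0.16 ± 0.05, or 1.12-fold (limma adjusted p = 0.293). Its other probe sets gave -0.05 and -0.02, and without the _x_at and _s_at types MED30 was at -0.05 (limma adjusted p = 0.821). With trend and robust variances MED30 was the only member called beside CDK19. MED29 had levels of 7.39, 7.21 and 7.40 in cortistatin A, against 7.18, 7.25 and 7.23 in DMSO. A single drug array overlapped with the DMSO arrays, and the change was 0.11 ± 0.07 (limma adjusted p = 0.564). MED27 had levels of 8.07, 8.05 and 8.10 in cortistatin A, against 8.13, 8.12 and 8.08 in DMSO. Its groups overlapped within a range of less than 0.1, and its change was -0.04 ± 0.05 (limma adjusted p = 0.773). The activator-binding subunits MED15 (-0.02), MED16 (-0.02) and MED23 (-0.0044), and MED28 (-0.03), overlapped between the groups. MED24 (0.07) rested on a probe set with a mean of 3.78, close to the median, and had an interval of -0.30 to 0.44. A further probe set that names MED24 together with a microRNA gene was not used.

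MED14, the scaffold that spans the core, had levels of 7.03, 6.89 and 7.03 in cortistatin A, against 7.13, 7.08 and 7.10 in DMSO. All drug arrays were lower, and the change was -0.12 ± 0.06 (limma adjusted p = 0.452). Another bright probe set of MED14 gave -0.02, and the mean over all its probe sets was -0.06.

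**Figure D3:**
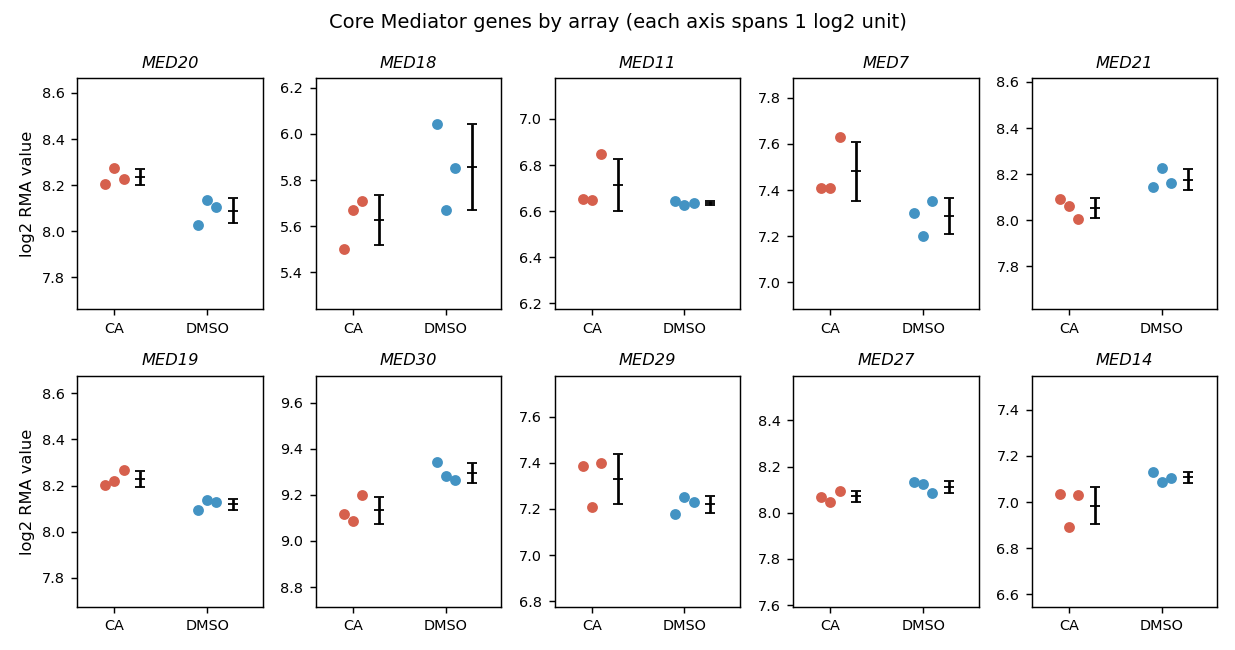
Log2 values of the 3 head, 3 middle and 3 tail genes with the smallest p and of MED14 on each array (points, cortistatin A left and DMSO right), with mean and SD. MED20, MED11, MED7 and MED19 have all drug arrays above the DMSO arrays, and MED21, MED30 and MED14 have them below.

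Several members were read by more than 1 probe set, which come from the same RNA and are not replicates. The 31 genes had 91 probe sets, of which 77 were bright and 14 dim. With p adjusted over all 41091 single-gene probe sets, 0 of the 91 passed (lowest limma adjusted p = 0.218), where 0.18% of all probe sets did. At an unadjusted limma p under 0.05 stood 7 of them (7.69%), where 11.3% of all probe sets did, and for 17 (18.7%) the groups did not overlap, where 17.6% of all did. Of the 17, 6 were higher and 11 lower. The shares over probe sets were thus close to or below those of the whole array.

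Among the 22 members with at least 2 bright probe sets, these had the same sign for 15, with 12 all lower and 3 all higher, and mixed signs for 7. The matching shares over all genes were not worked out, so these counts have no background beside them. CDK19 had 4 probe sets, all lower, at -0.22, -0.28, -0.22 and, for the dim one, -0.08. MED13 had 4 as well, all lower, at -0.15, -0.26, -0.24 and, for the dim one, -0.20. That at -0.26 had levels of 8.29, 8.30 and 8.31 in cortistatin A, against 8.61, 8.48 and 8.57 in DMSO. Its groups did not overlap, with a margin of 0.18, and its limma adjusted p over all probe sets was 0.218, the lowest of any Mediator probe set. MED7 was higher with all 3 probe sets (0.20, 0.06 and 0.09).

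For others the value depended on the probe set read. CDK8 gave -0.05, 0.09 and -0.17, and MED13L, with 5 bright probe sets, gave 0.10, -0.12, 0.01, -0.10 and -0.06. The brightest MED13L probe set, used for the gene, thus gave the highest of these values. MED20 gave 0.15 and -0.09. MED17 gave -0.07 and -0.06, while a probe set at a mean of 3.75 gave -0.44, which did not pass (limma adjusted p = 0.526). The 10 probe sets of MED28, 8 of them bright, lay between -0.24 and 0.17. The median spread between the bright probe sets of a member, 0.13, was larger than the median size of the members' changes.

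**Figure D4:**
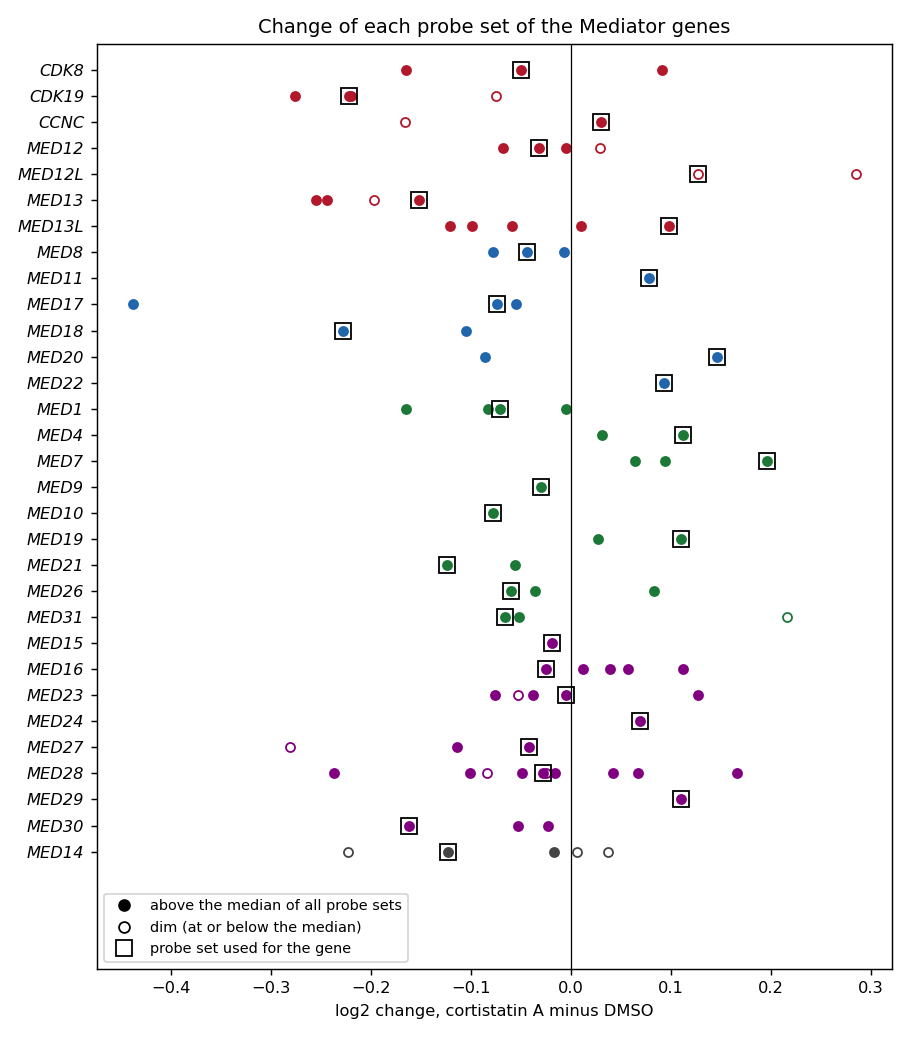
Log2 change, cortistatin A minus DMSO, of all 91 probe sets of the 31 Mediator genes, filled where bright and open where dim, with a square around the probe set used for the gene. All probe sets of CDK19 and MED13 lie below 0, while those of CDK8 and MED13L lie on both sides.

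Mediator acts together with the polymerase and the general transcription factors, so 50 genes of this machinery and of cohesin, which Mediator partners at enhancers, were set beside it. Of these 48 were measured, and 1 passed, where 0.582% of all genes did. GTF2A1, the large subunit of TFIIA, which steadies the TATA-binding protein on DNA, had levels of 9.73, 9.72 and 9.78 in cortistatin A, against 9.43, 9.41 and 9.37 in DMSO. The groups did not overlap, and GTF2A1 rose by 0.34 ± 0.05, or 1.26-fold (limma adjusted p = 0.0484). Its adjusted p lay between 2.8e-05 and 0.271 in the 14 alternatives. With the mean of both its probe sets the change was 0.39, and the call ended (limma adjusted p = 0.0705). The call also ended without the _x_at and _s_at types (limma adjusted p = 0.0814) and with housekeeping centring (0.0575). With the mean 3' to 5' signal of 22 control pairs as covariate it ended too (limma adjusted p = 0.198). It ended as well in each of the 6 fits that leave out an array, with changes of 0.32 to 0.35. Of all genes 0 were called with that covariate and 0 to 4 without 1 array, so those fits could hardly keep this call.

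Of the 12 polymerase II subunits 0 passed (median 0.0021), and the nearest were POLR2K at 0.12 and POLR2A, the catalytic subunit, at -0.12. Of the 7 genes of TFIIA, TFIIB, TFIIE and TFIIF, GTF2A1 was the only call (median -0.0028). GTF2B, chosen after its values were seen, stood at -0.27 ± 0.05 (limma adjusted p = 0.0837) with levels of 8.51, 8.54 and 8.52 in cortistatin A and 8.82, 8.80 and 8.76 in DMSO. With dim genes left out, where 2.54% of genes were called, GTF2B passed (limma adjusted p = 0.0223). Of 13 TFIID genes 0 passed (median -0.0033), with TAF8 at -0.25 and TAF13 at 0.33. Of 9 TFIIH genes 0 passed (median 0.04), with GTF2H1 at 0.14 and CDK7, the kinase of TFIIH, at -0.15. Of 7 cohesin genes 0 passed (median -0.08), with the loader subunits MAU2 at -0.19 and NIPBL at -0.13. The groups did not overlap for 12 of these 48 genes (25.0%), where 25% of all genes above the median did not and all 48 lie above it.

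**Figure D5:**
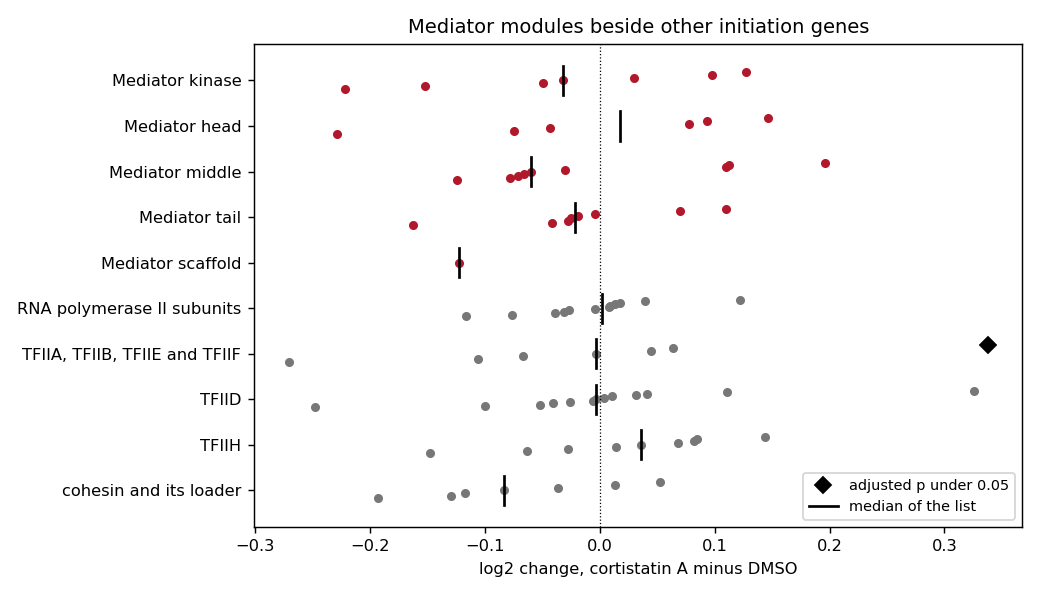
Log2 change, cortistatin A minus DMSO, of the measured genes of each Mediator module (red) and of 5 lists of the initiation machinery and cohesin (grey), with the median of each list as a bar. GTF2A1, the black diamond at 0.34, is the only gene past an adjusted p of 0.05.

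Promoter sequence was compared as a feature that the choice of members did not use. RefSeq promoters of 300 bases were at hand for 25 of the 33 genes, and the first listed start of each was searched on both strands. The YY1 site AAGATGGCG was in 4 of the 25 (16%), namely MED18, MED1, MED16 and MED25, and in 2.74% of 15843 protein-coding promoters. The ETS site CCGGAAG was in 7 (28%), among them MED7, MED17 and MED18, and in 14.2% of protein-coding promoters. The GC box GGGCGG was in 15 (60.0%, against 58.5%), the CCAAT box, CCAAT, in 10 (40.0%, against 36.4%) and the TATA box, TATAAA, in 2 (8.0%, against 9.63%). In the sequences shown, CDK8 holds 1 GC box, and CDK19 holds 3 CCAAT boxes and 1 GC box. These are letter matches in a short window, and none was tested against the changes.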

How the data were processed

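RNA of 6 samples was read with single-colour Affymetrix U133 Plus 2.0 arrays. The deposited values are RMA values on the log2 scale, made by the authors with RMA and the affy package, per the submitters' processing notes, which give no version. The log2 scale was inferred from the range of the values. RMA evens out the arrays, so a shift of all transcripts together would not be seen, and it compresses changes near background. Scanner files and detection calls were not used here. Arrays give no sequencing depth. Their number, 3 a group, limits the precision.

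The table holds 54675 probe sets, 62 of them controls, and 41091 name 1 gene, 1801 several and 11721 none. Symbols were updated through RefSeq gene identifiers for 41037. For each of 19775 genes the probe set with the highest mean was compared between groups in R 4.3.3 by limma 3.58.1 (functions lmFit and eBayes, no filter, a two-sided test of the group term alone, 4 residual and 2.68 prior degrees of freedom, p adjusted over all genes by Benjamini-Hochberg), tested on simulated data. Changes are cortistatin A minus DMSO with limma standard errors. Every member is accounted for. Array values are given for the kinase module, MED14 and the 3 genes of each other module with the smallest p, and of the other lists the called genes, or else up to 2 with the smallest p, are named. Members and lists were chosen with earlier results of these data known. Alternatives were a replicate block, dim genes left out, the mean of all probe sets, no _x_at or _s_at types, a further quantile normalization, centring on 10 housekeeping genes, trend and robust variances, a 3' to 5' index over 22 control pairs as covariate, an adjusted p under 0.1 and each array left out.

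Replicate numbers are shared between the groups. The labels do not say that equal numbers mark shared handling, so the numbers were not taken as pairs. Deviations of same-numbered arrays from their group means correlated at -0.055, 0.009 and 0.016. Those of arrays with unlike numbers correlated at -0.042 to 0.035.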

Additional observations from a re-analysis of the deposited data

How the results depend on the processing

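The count of Mediator genes called was 0 in every alternative but trend and robust variances, where it was 2 (CDK19 and MED30). Several of these fits, given below, called 0 to 4 of all genes and could hardly have called a member. With the replicate number as a block 0 members and 0 initiation genes were called. Of all genes 0 were called in that fit (2243 at an unadjusted limma p under 0.05). Whether equal numbers mark shared handling is not said in the labels, and the correlations near 0 do not settle it. For the initiation genes, of which 1 was called, the count was 0 with the mean of all probe sets, without the _x_at and _s_at types, with the 3' to 5' covariate, with housekeeping centring and in each fit without 1 array, 2 with dim genes left out and 5 with trend and robust variances. Of all genes, of which 115 were called, 321 were with dim genes left out, 762 with trend and robust variances, 76 with the mean of all probe sets, 54 without the _x_at and _s_at types, 0 with the 3' to 5' covariate (1960 unadjusted) and 0 to 4 without 1 array.

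Over all alternatives 21 members kept their sign and 10 did not, none of which was called. With the mean of all probe sets CCNC was at -0.068, MED13L at -0.034, MED31 at 0.033 and MED16 at 0.039. With the 3' to 5' covariate MED12 was at 0.025, MED15 at 0.012 and MED23 at 0.0012, without the _x_at and _s_at types MED12 was at 0.030, and with a further quantile normalization MED9 was at 0.0048. Without 1 array the range was -0.11 to 0.012 for CDK8, -0.055 to 0.015 for MED12, -0.073 to 0.012 for MED9, -0.046 to 0.00066 for MED15, -0.071 to 0.046 for MED23 and -0.097 to 0.23 for MED24. The median of the kinase module was 0.030 without the _x_at and _s_at types, 0.017 with the 3' to 5' covariate and -0.055 to 0.015 without 1 array. That of the head was -0.078 without the _x_at and _s_at types and -0.035 with MED27 to MED30 counted in it. That of the middle was -0.0041 with the mean of all probe sets and -0.073 to -0.025 without 1 array. MED14 was at -0.22 without the _x_at and _s_at types, which leaves it a dim probe set. The same setting leaves MED12 a dim probe set with a mean of 3.48, and leaves no probe set for MED11, MED20 and MED22 of the head. The mean of all probe sets includes a dim one at -0.17 for CCNC and a dim one at 0.22 for MED31. The cause of the remaining shifts was not tested. The signs of the 3 paralogue differences held in all settings run for them.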
